A study of Mus musculus with 4 samples.

Results

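Coronary endothelial cells, which line the arteries, capillaries and veins of the heart wall, were compared between postnatal day 2 (P2) and the adult at 8 weeks (Adult). A cell was taken as coronary by its transcripts, counted as unique molecular identifiers (UMIs), where 1 UMI stands for 1 captured transcript. Its UMIs of Fabp4, Cldn5, Aplnr and Gpihbp1 had to sum to at least 2 and to exceed those of the endocardial genes Npr3, Tmem108, Cpe and Gsta4, and it needed at least 1 UMI of Pecam1, Cdh5 or Egfl7. The rule took 4237 of 5884 P2 cells (72.0%, 95% interval 70.8% to 73.2%) and 3947 of 4242 Adult cells (93.05%, 92.2% to 93.8%). Together these were 8184 of the 10126 cells of both libraries, in a series of 21920 cells. The members were thus chosen by their measured UMI counts of these 11 genes, whose levels are given below as a description only.

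The series holds 1 single-cell library for each of 4 stages, E12, E15, P2 and Adult, all from hearts of C57Bl6J mice. Hearts were pooled from 37 (E12), 48 (E15), 21 (P2) and 6 (Adult) animals, and CD31+/CD45- cells were sorted from them, frozen with DMSO and thawed before capture. P2 and Adult hearts went through the same digestion, and thawed cells of these stages were sorted again for live cells. Embryonic hearts had a shorter digestion, and their thawed cells passed a dead cell removal step. Red blood cells were lysed in the Adult preparation only. As each stage is a single library of pooled animals, age cannot be told apart from library, pool of animals or depth, and all intervals below are exact 95% intervals for counting error alone.

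The coronary circulation is built as a plexus that sprouts, divides and is then sorted into arteries, capillaries and veins, and the heart keeps growing after birth. Mature cardiac capillaries feed a muscle that lives mainly on fatty acids, so their endothelium is known for taking up lipids and for moving water, gases and nutrients across a continuous wall. Endothelial cells also carry class I antigen-presenting molecules, which display fragments of the cell's own proteins to CD8 T cells, and they respond to interferons, the signals of antiviral defence.

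Coronary cells held 21757505 UMIs at P2, with a median of 4529 UMIs and 1912 genes per cell, and 6931118 UMIs in Adult, with a median of 1489 UMIs and 877 genes. Levels are given as counts-per-million (CPM), a gene's part of the summed UMIs of all coronary cells of a stage. The same rule took 112 cells at E12 and 1089 at E15, and their levels stand beside the others as a description. There 1 UMI was worth 4.11 CPM at E12 and 0.667 CPM at E15, and a count of 0 allows up to 12.3 and 2.00 CPM. The median mitochondrial share was 3.19% at P2 and 4.25% in Adult, and 26 coronary barcodes occurred in both libraries. The median sum of the coronary rule genes was 85 UMIs per cell at P2 and 38 in Adult. Just inside the threshold, 11 P2 and 30 Adult cells had a sum of exactly 2, and just outside it 6 cells of each stage had a sum of 1. Another 46 P2 and 8 Adult cells were left out because the coronary and endocardial sums were equal. A further 8 P2 and 100 Adult cells met the limits on both sums but held no UMI of Pecam1, Cdh5 or Egfl7.

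Markers that the rule did not use matched the label. The 12 other coronary markers summed to 4943 CPM at P2 and 11000.1 CPM in Adult, against 989 and 1509 CPM in the endocardial cells of the same libraries, taken by the mirrored rule (1555 cells at P2 and 131 in Adult). The fatty acid transporter Cd36 alone had 1900.1 CPM at P2 and 3492 CPM in Adult in coronary cells, and 163 and 260.4 CPM in endocardial cells. The 14 other pan-endothelial markers had a median log2 ratio of 0.41, and 0 of them differed by 2-fold with an interval that excludes 1. Among the rule genes, the fatty acid binding protein Fabp4 had 15213 to 21839 CPM from P2 to Adult, the lipase anchor Gpihbp1 1384 to 2299 CPM, the tight junction protein Cldn5 1454 to 860.3 CPM and the apelin receptor Aplnr 389 to 328 CPM. Of the endocardial rule genes, Cpe had 206 to 70.7 CPM and Npr3 32.6 to 15.6 CPM, and 40.8% of P2 and 9.25% of Adult coronary cells held at least 1 UMI of the 4.

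Cells of other kinds were present among those the rule took, and their markers moved between the stages. Summed hemoglobin and other erythroid markers had 32.4 CPM at P2 and 393 CPM in Adult, and 2499 of 2717 Adult hemoglobin UMIs sat in 5 cells. Leukocyte markers had 3.22 and 253 CPM, and 8 cells held 1053 of the 1124 Adult UMIs of Ptprc, C1qa, Lyz2 and Tyrobp. Mural cell markers had 62.05 and 305 CPM, and fibroblast markers 293 and 888 CPM. Lymphatic markers went the other way, from 1132 to 118 CPM, with 184 P2 cells holding 22256 of 22936 UMIs of Prox1, Lyve1 and Ccl21a. Endocardial markers outside the rule had 747 and 297 CPM, cardiomyocyte markers 368 and 453 CPM, platelet markers 19.7 and 43.6 CPM and epicardial markers 118 and 79.2 CPM. Ratios were also computed without dividing cells, without artery cells, and without cells holding at least 1 UMI of a shorter set of other-type markers. That set was Ptprc, C1qa, Lyz2, Tyrobp, Pf4, Ppbp, Dcn, Col1a1, Pdgfra, Rgs5, Pdgfrb, Acta2, Tagln, Prox1, Lyve1, Wt1 and Upk3b. It held no hemoglobin, cardiomyocyte or endocardial gene and not Ccl21a. Counted without thinning, it left 1985 of 4237 P2 and 2923 of 3947 Adult cells. A selection of these ratios is given with the genes below. In them an artery cell is any cell with at least 2 UMIs of Gja4, Gja5, Cxcl12, Glul, Stmn2 and Fbln5 together. The name stands for these genes only and not for a type of vessel. Leaving such cells out left 2730 of 4237 P2 and 1456 of 3947 Adult cells.

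Most genes differed by less than 2-fold between the stages. Of 5864 genes with a mean level of at least 20 CPM, 4914 (83.8%) lay within 2-fold, and the median log2 ratio of Adult over P2 was -0.02. A gene is called higher or lower here when its CPM ratio passed 2-fold and the interval of the ratio excluded 1. By this measure 499 genes (8.51%) were higher in Adult and 451 (7.69%) were lower, and 129 and 142 of them passed 4-fold. A gene that reaches a mean of 20 CPM with under 13.3 CPM at one stage must differ by 2-fold, which was so for 104 of the higher and 111 of the lower genes. Leaving out the rule genes, markers of other cell types, sex-linked genes and genes named by number, the 15 lowest ratios of called genes with a mean level of at least 50 CPM included H19, Mest and several cell division genes, and the 15 highest included class I genes and Cd74, Xdh, Thrsp, Alpl and heat shock chaperones. Counts of list members below are read against 8.51% and 7.69%, and list medians against -0.02. Lists can share members, so their counts are not separate results. Aqp7 is on the mature capillary and the water transport list, and Dll4 on the tip cell and the Notch list.

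**Figure D1:**
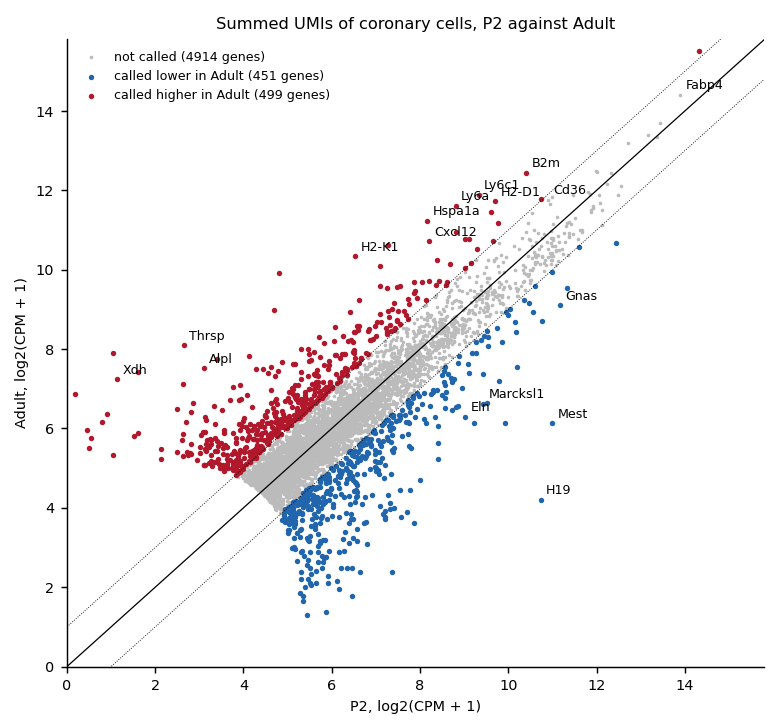
Level of each of 5864 tested genes in coronary cells, in CPM on log axes, at P2 (horizontal) and in Adult (vertical), with 499 genes called higher and 451 called lower in colour and dotted lines at 2-fold. The 4914 genes within 2-fold lie between the dotted lines. Of the genes named on the plot, Fabp4 and Cd36 lie between these lines and the others outside them, and single libraries stand on both axes.

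Among the imprinted and fetal growth genes, H19 had the lowest ratio of all called genes with a mean level of at least 50 CPM. H19, a long non-coding RNA expressed from the maternal copy of the Igf2 locus, had 2373, 3022, 1702 and 17.5 CPM at E12, E15, P2 and Adult. Mest, expressed from the paternal copy, had 2065, 2728, 2040.1 and 69.3 CPM. Both were high at the first 3 stages and low in Adult, where H19 was 97.5-fold lower (81.6 to 118) and Mest 29.5-fold lower (26.9 to 32.3) than at P2. H19 (ENSMUSG00000000031) lies on chromosome 7 at 142575529 to 142578143 and Mest on chromosome 6 at 30723547 to 30748465 of GRCm38.p6. With every cell thinned to 500 UMIs, 37.2% of P2 and 0.659% of Adult cells held an H19 UMI, and 52.3% and 2.46% a Mest UMI. Endocardial cells of the same libraries held an H19 UMI in 86.9% and 13.7%. The H19 ratio of Adult to P2 was 0.0103 over all cells and ranged from 0.00614 to 0.0247 over the alternatives tried, the latter without artery cells.

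Of 23 imprinted and fetal growth genes present in the files, 11 were tested and 9 were called lower, with 0 called higher and a median log2 ratio of -2.06. In 2 of the 9 the Adult level was under 13.3 CPM. Among the 12 members that were not tested, 10 were below 1 and 1 above. Gnas, which encodes the stimulatory G protein alpha subunit, had 3153, 3394, 2291 and 548 CPM at E12, E15, P2 and Adult, and was 4.18-fold lower (4.04 to 4.32) in Adult than at P2. Plagl1, a zinc finger factor of the imprinted gene network, had 369, 376, 106 and 11.3 CPM and fell 9.41-fold (7.51 to 11.9). It is also on the list of endocardial markers, whose sum among the coronary cells went from 747 to 297 CPM. Without cells carrying markers of other types, a set without endocardial genes, the Adult level of Plagl1 was 0.04603 times that of P2. The growth factor Igf2, its clearance receptor Igf2r, the adaptor Grb10, the zinc finger gene Peg3 and Ndn were the other members called lower. Cdkn1c, an imprinted inhibitor of cyclin-dependent kinases that also marks arteries, had 336 to 530.1 CPM from P2 to Adult, a ratio of 1.58 (1.52 to 1.64) that did not pass 2-fold. As a group the members summed to 7322 CPM at P2 and 1408 CPM in Adult.

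**Figure D2:**
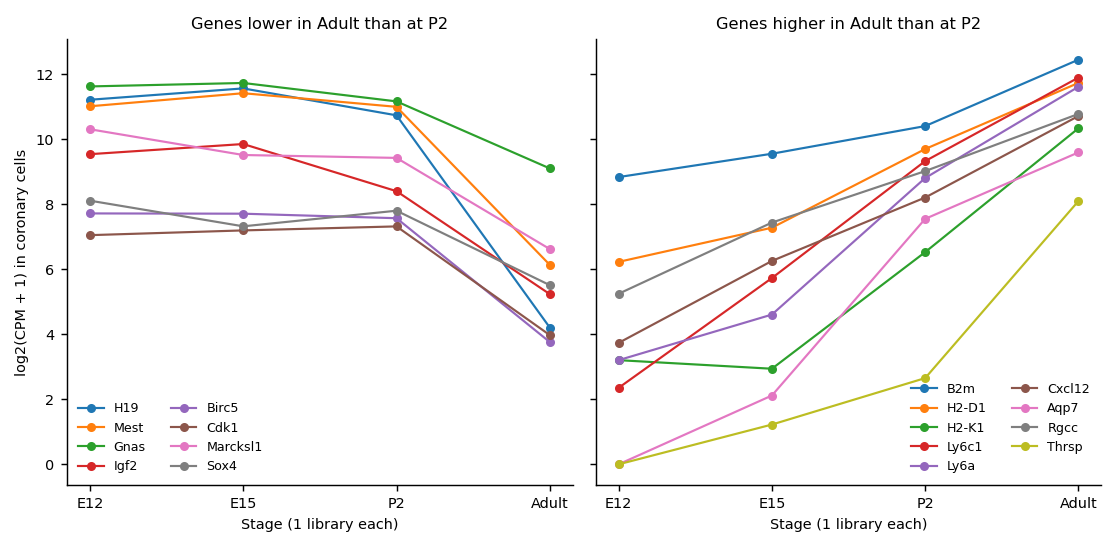
Levels at the 4 stages of 8 genes that were lower (left) and 9 that were higher (right) in Adult than at P2, as log2(CPM + 1) in coronary cells, with 1 library per point and lines joining a gene's values. H19 and Mest keep high levels through P2 and drop in Adult, while H2-K1, Ly6a, Cxcl12 and Thrsp climb to their highest level in Adult.

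Some genes outside that list were also among the lowest ratios. Mdk, the heparin-binding growth factor midkine, had 411, 162, 98.9 and 4.18 CPM at E12, E15, P2 and Adult, less at each later stage, and it was 23.6-fold lower (16.4 to 35.4) in Adult than at P2. Tmem255a, a transmembrane protein, had 86.2, 190.1, 163 and 4.18 CPM and fell 39.01-fold (27.1 to 58.3), and in endocardial cells of P2 it had only 5.602 CPM. Maged2, of the MAGE family, had 131, 206, 218 and 20.9 CPM and fell 10.4-fold (8.85 to 12.4). The nuclear lamina gene Lmnb1 had 107, 91.4, 148 and 14.1 CPM and fell 10.5-fold (8.55 to 12.9). Without dividing cells its Adult level was 0.242 times that of P2, and the call ended as the mean level fell under 20 CPM. The insulin-like growth factor binding proteins Igfbp4 and Igfbp5 were 3.52-fold (3.27 to 3.801) and 4.85-fold lower (4.47 to 5.28) in Adult, while Igfbp3 (145 to 89.5 CPM) and Igfbp7 (926 to 657 CPM) stayed within 2-fold. Igfbp5 is also on the list of endocardial markers. Its ratio of Adult to P2 was 0.414 without artery cells and 0.103 without cells carrying markers of other types.

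Cell division genes were lower in Adult as a block. All 18 mitosis genes that were tested, of 24 on the list, were called lower with a median log2 ratio of -3.42, and the 6 that were not tested were also below 1. In 14 of the 18 the Adult level was under 13.3 CPM, so these had passed the filter through P2. The mitosis genes summed to 1946, 2003, 2003 and 199 CPM at E12, E15, P2 and Adult, so the level was about the same at the first 3 stages. Birc5, the chromosomal passenger protein survivin, had 209, 208, 189 and 12.6 CPM at the 4 stages and fell 15.1-fold (12.2 to 18.8) from P2 to Adult. Cdk1, the kinase that drives entry into mitosis, had 131, 145, 159 and 14.7 CPM and fell 10.8-fold (8.85 to 13.2). Topoisomerase Top2a fell 10.6-fold (8.59 to 13.1) and Ube2c, which tags mitotic cyclins for destruction, 11.7-fold (9.42 to 14.6).

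The share of cells that held mitosis transcripts differed too. At least 2 UMIs of the mitosis list were held by 40.1% of P2 and 1.82% of Adult cells, and by 14.1% and 0.836% at 500 UMIs per cell. When these cells were left out, 10 of the 18 were still at least 2-fold lower with an interval under 1, and Birc5 was at 0.1301 times its P2 level, Cdk1 at 0.311 and Top2a at 0.126. The centromere histone Cenpa changed direction there, at 1.37. Since the cells were removed by these same genes, those values describe what the removal left.

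DNA replication genes moved the same way by less. Of 24 members, 17 were tested, 16 of them were called lower, and the median log2 ratio was -1.92. In 7 of the 16 the Adult level was under 13.3 CPM, so these had passed the filter through P2. The 7 members that were not tested were also below 1. The ribonucleotide reductase subunit Rrm2 had 146 to 12.1 CPM from P2 to Adult (12.03-fold lower), thymidine kinase Tk1 111 to 7.502 CPM (14.8-fold lower) and thymidylate synthase Tyms 131 to 30.01 CPM (4.36-fold lower). The replication clamp Pcna, with 162 to 82.4 CPM and a 1.96-fold lower (1.798 to 2.15) level, did not reach 2-fold. Cks1b, a subunit of cyclin-dependent kinases, fell 14.7-fold (12.04 to 18.2) from 206 CPM. Of the replication-dependent histones, 3 of 14 were tested, and Hist1h2bc (3.195-fold) and Hist1h1c (2.32-fold) were called higher and Hist1h2ap lower. Hist1h2ap lost its call in 6 alternatives and was at 1.097 times its P2 level among cells of 1500 to 3000 UMIs. Its Adult level was under 13.3 CPM, so it had passed the filter through P2. Most histone transcripts lack a poly(A) tail, which the capture chemistry needs.

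Promoters of the mitosis genes were searched for elements known from late cell cycle promoters. Each promoter window runs from 250 bases before to 50 bases after the annotated start, taken from RefSeq on GRCm38.p6, and both strands were searched. TTTGAA, the core of the cell cycle genes homology region, was found in windows of 11 of 16 tested mitosis genes that had one (68.8%), of 643 of 4544 tested genes (14.2%) and of 20.2% of all 27025 genes with a window. CCAAT was found in 14 of 16 (87.5%), 43.2% of the tested genes and 41.1% of all. In the replication genes the shares were 2 of 15 for TTTGAA and 11 of 15 for CCAAT. The windows of Cdk1 and Top2a are shown 5′ to 3′ because they hold both elements several times, with every TTTGAA and CCAAT on either strand in capitals. The window of Birc5 held neither. A match describes these letters only.
Cdk1 (chr10:69352863-69353162, minus strand): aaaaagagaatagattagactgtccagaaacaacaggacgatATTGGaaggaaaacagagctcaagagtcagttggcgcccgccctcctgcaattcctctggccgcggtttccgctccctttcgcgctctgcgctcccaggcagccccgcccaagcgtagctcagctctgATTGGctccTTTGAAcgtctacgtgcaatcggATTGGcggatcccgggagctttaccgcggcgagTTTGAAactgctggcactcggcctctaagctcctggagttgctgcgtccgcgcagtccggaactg
Top2a (chr11:99024140-99024439, minus strand): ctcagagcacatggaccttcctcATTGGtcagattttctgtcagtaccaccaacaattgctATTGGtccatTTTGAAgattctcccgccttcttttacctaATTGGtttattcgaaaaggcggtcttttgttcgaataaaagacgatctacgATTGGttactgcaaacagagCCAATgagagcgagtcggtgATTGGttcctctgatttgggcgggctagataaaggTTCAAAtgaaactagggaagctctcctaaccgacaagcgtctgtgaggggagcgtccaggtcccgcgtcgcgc

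Genes of class I antigen presentation rose nearly throughout the pathway. Of 18 genes, 17 were tested and 16 were called higher in Adult, with a median log2 ratio of 2.03 and 0 called lower. In 14 of the 16 the P2 level was already at least 13.3 CPM. Their summed level was 743, 1192, 3072 and 13353 CPM at E12, E15, P2 and Adult, higher at each later stage and with the largest fold between P2 and Adult. The count of members called stayed between 15 and 17 over the alternatives tried.

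B2m, the light chain shared by class I molecules, had 456, 749.9, 1353 and 5579 CPM at E12, E15, P2 and Adult. Levels were 1353 CPM (1338 to 1369) at P2 and 5579 CPM (5523 to 5635) in Adult, a ratio of 4.12 (4.06 to 4.19). At 500 UMIs per cell a B2m UMI was found in 46.3% of P2 and 89.1% of Adult cells. The heavy chain H2-D1 had 73.9, 154, 829 and 3399 CPM at the 4 stages and rose 4.098-fold (4.02 to 4.18). H2-K1, the other classical heavy chain of this strain, had 8.21, 6.67, 91.2 and 1291 CPM, and its Adult level was 14.2-fold (13.5 to 14.9) that of P2, a larger ratio than those of B2m and H2-D1 by intervals that do not overlap. H2-K1 UMIs were found in 4.25% of P2 and 46.0% of Adult cells at 500 UMIs. The non-classical genes H2-Q7 and H2-Q6 went from 9.56 and 2.07 CPM at P2 to 214 and 171 CPM in Adult. They are near-identical copies whose reads may be exchanged by the counting, so their separate ratios are uncertain. The proteasome activator Psme2, at 1.95-fold (1.85 to 2.05), was the member that did not pass 2-fold.

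Endocardial cells of the same libraries showed the class I difference as well. There 14 members were called higher, B2m had 849 and 4252 CPM at P2 and Adult with a ratio of 5.01 (4.74 to 5.29), and H2-K1 had 54.02 and 1580.0 CPM with a ratio of 29.2 (25.8 to 33.2). The summed class I level was 5.38-fold higher in Adult endocardial cells, with an interval of 5.20 to 5.57, and 4.35-fold higher in coronary cells (4.30 to 4.39). The difference is therefore present in both kinds of cell that these libraries hold.

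The class I promoters were searched for 2 copies of GAAA with any 2 bases between them, a form of the interferon-stimulated response element (ISRE), and for GGG, any 2 bases, TT, any base and CC in a row, a form of the kB element that NF-kB proteins bind. The first was found in 4 of 16 windows (25%), against 3.99% of all 27025 and 4.27% of the tested genes, and the second in 6 of 16 (37.5%), against 5.48% and 6.40%. Both are shown in B2m, the kB form in H2-K1, and both forms in Ifit1 and the ISRE in Ifit3, members of the interferon list described next. Capitals mark these matches on either strand, and H2-K1 has a second start in RefSeq whose window holds the same match. The windows of Psmb8, Psmb9 and Tap1, other members called higher, held neither.
B2m (chr2:122147437-122147736, plus strand): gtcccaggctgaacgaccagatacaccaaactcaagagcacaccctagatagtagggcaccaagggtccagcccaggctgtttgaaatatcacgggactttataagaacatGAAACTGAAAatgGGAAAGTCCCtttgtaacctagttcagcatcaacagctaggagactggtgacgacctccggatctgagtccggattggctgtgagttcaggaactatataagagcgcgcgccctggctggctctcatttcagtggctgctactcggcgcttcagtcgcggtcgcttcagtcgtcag
H2-K1 (chr17:34000298-34000597, minus strand): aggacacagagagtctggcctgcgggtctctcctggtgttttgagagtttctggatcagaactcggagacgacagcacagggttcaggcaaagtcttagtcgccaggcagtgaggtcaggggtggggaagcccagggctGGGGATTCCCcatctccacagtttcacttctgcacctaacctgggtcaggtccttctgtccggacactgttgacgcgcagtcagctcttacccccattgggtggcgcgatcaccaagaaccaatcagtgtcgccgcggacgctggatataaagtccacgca
Ifit1 (chr19:34640639-34640938, plus strand): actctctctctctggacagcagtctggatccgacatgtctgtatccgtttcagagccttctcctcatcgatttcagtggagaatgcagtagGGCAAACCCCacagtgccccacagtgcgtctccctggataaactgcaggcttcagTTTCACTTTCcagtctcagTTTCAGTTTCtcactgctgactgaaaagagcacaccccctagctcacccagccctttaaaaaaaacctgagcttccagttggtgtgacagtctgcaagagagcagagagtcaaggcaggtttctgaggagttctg
Ifit3 (chr19:34583279-34583578, plus strand): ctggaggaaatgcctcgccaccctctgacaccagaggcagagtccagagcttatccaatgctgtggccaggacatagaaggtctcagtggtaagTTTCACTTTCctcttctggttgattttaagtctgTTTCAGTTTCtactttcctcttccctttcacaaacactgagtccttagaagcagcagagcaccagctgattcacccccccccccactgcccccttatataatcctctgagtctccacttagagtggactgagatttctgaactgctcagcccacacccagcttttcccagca

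Interferon response genes were higher in Adult as a group. Of 28 members, 24 were tested and 22 were called higher, with a median log2 ratio of 1.77, and in 6 of the 22 the P2 level was under 13.3 CPM. The count stayed between 18 and 22 over the alternatives. Ifitm3, an inhibitor of viral entry, had 103, 424, 1700.0 and 3524 CPM at E12, E15, P2 and Adult, and its ratio of 2.07 (2.04 to 2.11) fell under 2-fold in 8 alternatives, down to 1.79. The viral tether Bst2 had 103, 221, 391 and 831 CPM and rose 2.13-fold (2.06 to 2.2002). Ifi27 had 12.3, 38.03, 90.1 and 343 CPM and rose 3.81-fold (3.58 to 4.04). Ifit1 and Ifit3, which bind viral RNA or its binding proteins, had 0 UMIs at E12 and E15 and 11.996 to 104 CPM and 4.64 to 88.3 CPM from P2 to Adult. The chemokine Cxcl9 went from 6.07 to 83.7 CPM, with UMIs in 0.378% of P2 and 4.05% of Adult cells at 500 UMIs. Ifitm3 was found in 56.6% and 77.1% in the same way. In the promoters of 19 tested members with a window, this ISRE form was found in 11 (57.9%) and the kB form in 2. In endocardial cells 11 members were called higher.

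Class II molecules, which present taken-up proteins to CD4 T cells, were almost absent at P2. Of 8 members 3 were tested, all 3 passed the filter through Adult alone, and the 5 others were also above 1. The invariant chain Cd74 had 0, 0.667, 1.06 and 239 CPM at E12, E15, P2 and Adult, H2-Ab1 0, 2.001, 0.873 and 80.8 CPM and H2-Aa 0, 0, 0.368 and 61.5 CPM. At 500 UMIs per cell 0.142% of P2 and 4.18% of Adult cells held a UMI of the class II list. Leukocyte markers, which professional class II cells would carry, were at 3.22 CPM at P2 and 253 CPM in Adult, and Lyz2 at 0.138 and 116 CPM. Without the cells that carried markers of other types, the Adult to P2 ratio was 125 for Cd74 and 85.7 for H2-Aa, and the call of H2-Aa ended as its mean level fell under 20 CPM. The call of H2-Ab1 ended there as well, so only Cd74 was still called. Cd74 in turn lost its call, at a ratio of 66.1, when dividing cells, cells with markers of other types and artery cells were left out together.

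**Figure D3:**
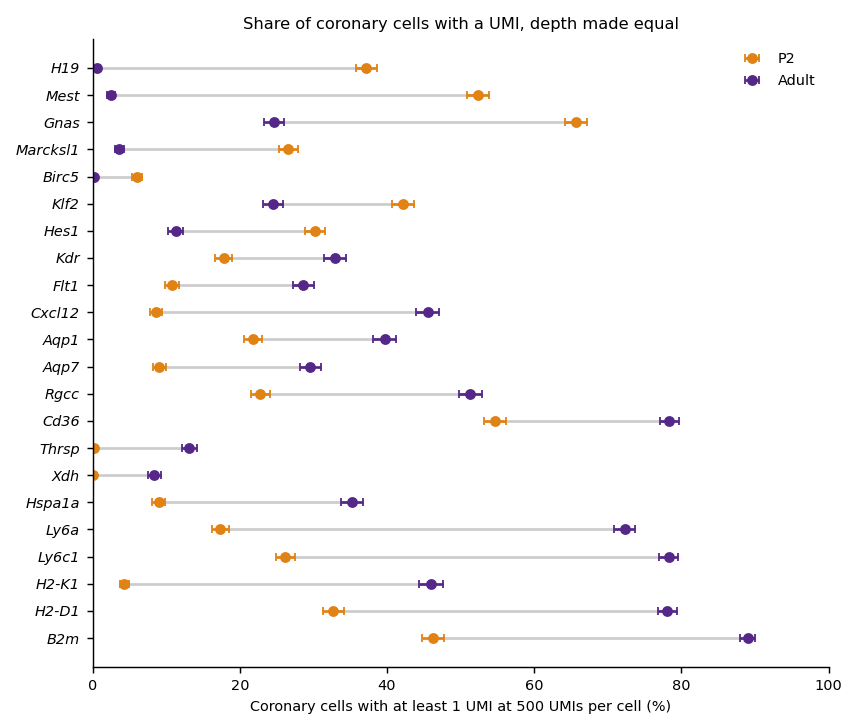
Share of coronary cells with at least 1 UMI of each of 22 genes, in percent, at P2 and in Adult after every cell was thinned to 500 UMIs, with exact 95% binomial intervals as bars. The share moved from 37.2% to 0.659% for H19 and from 4.25% to 46.0% for H2-K1, while the intervals, which cover counting error only, are narrow beside these differences.

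Genes for Ly6 surface proteins rose in coronary cells. Ly6c1, a small lipid-anchored protein of capillary endothelium, had 4.11, 52.04, 641 and 3805 CPM at E12, E15, P2 and Adult. Ly6a, known as Sca-1, had 8.21, 23.4, 447 and 3129.7 CPM, and Ly6e 8.21, 215, 784 and 2813 CPM. All 3 were higher at each later stage, and from P2 to Adult they rose 5.93-fold (5.81 to 6.06), 7.01-fold (6.84 to 7.18) and 3.59-fold (3.52 to 3.67). At 500 UMIs Ly6c1 was found in 26.2% of P2 and 78.3% of Adult coronary cells and in 1.61% and 7.63% of endocardial cells, and Ly6a in 17.3% and 72.3% against 1.74% and 9.92%. Ly6c2, a close copy of Ly6c1, had 3.36 to 36.8 CPM and its count may include reads of Ly6c1. Across 18 adhesion molecules and Ly6 genes, 15 were tested, 7 were called higher and 0 lower, with a median log2 ratio of 0.83. In 1 of the 7 the P2 level was under 13.3 CPM, so it had passed the filter through Adult. The leukocyte adhesion molecule Vcam1 and the immune regulator Cd200 were the best known of the others called. The tetraspanin Cd9, with 1028 to 764 CPM, did not pass 2-fold.

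Markers of mature capillaries had their highest summed level in Adult. Of 16 mature capillary genes, all tested, 8 were called higher and 1 lower, with a median log2 ratio of 0.96. Among cells of 1500 to 3000 UMIs 6 were called higher and 0 lower, with a median of 0.48. The sum was 1149 CPM at E12, 2188 CPM at E15, 6723 CPM at P2 and 13234 CPM in Adult. Rgcc, a regulator of the cell cycle and a capillary marker, had 36.9, 172, 518 and 1754 CPM at the 4 stages and rose 3.39-fold (3.301 to 3.48) from P2. The metalloproteinase inhibitor Timp4 had 0, 0.667, 94.8 and 382 CPM and rose 4.03-fold (3.81 to 4.27), or 2.36-fold among cells of 1500 to 3000 UMIs. The retinaldehyde reductase Dhrs3 had 8.21, 25.4, 81.6 and 296 CPM and rose 3.63-fold (3.404 to 3.87).

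Water and ion channels followed. Of 18 genes of water, gas and ion transport, 9 were tested, 5 were called higher and 0 lower, with a median log2 ratio of 1.40. The water channel Aqp1 had 36.9, 138, 547 and 1745 CPM at E12, E15, P2 and Adult and rose 3.19-fold (3.11 to 3.27), and its endocardial level was 200.3 and 682 CPM at P2 and Adult. Aqp7, which passes glycerol and water, had 0, 3.34, 186 and 772 CPM and rose 4.14-fold (3.97 to 4.31), to a level found in 29.5% of Adult and 9.09% of P2 cells at 500 UMIs. Endocardial cells had 2.53 and 2.55 CPM, the latter from 1 UMI. The nucleoside transporter Slc28a2 (47.8 to 163 CPM) and carbonic anhydrase Car7 (22.2 to 85.4 CPM) also rose. Car4, the carbonic anhydrase on the capillary surface, was already at 234 CPM at P2 and 339 CPM in Adult, a ratio of 1.45 (1.38 to 1.52). Its ratio was 0.787 among cells of 1500 to 3000 UMIs.

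Most fatty acid genes differed by less than 2-fold between P2 and Adult. Of 24 members, 14 were tested, 3 were called higher and 1 lower, with a median log2 ratio of 0.59. In 1 of the 3 higher the P2 level was under 13.3 CPM, so it had passed the filter through Adult. The fatty acid transporter Cd36 had 32.8, 407, 1900.1 and 3492 CPM at E12, E15, P2 and Adult, so its largest fold gains lay before P2, and its ratio of 1.84 (1.81 to 1.87) stayed under 2-fold. Lipoprotein lipase, Lpl, had 16.4, 30.02, 278 and 556 CPM and a ratio of 1.998 (1.92 to 2.08), just short of a call. The hormone-sensitive lipase Lipe had 8.21, 4.003, 31.2 and 108 CPM and rose 3.45-fold (3.104 to 3.83). Thrsp, a regulator of fatty acid synthesis, was at 0, 1.33, 5.29 and 273 CPM, and its Adult level was 51.6-fold (42.8 to 62.9) that of P2, where a UMI was found in 0.212% of cells at 500 UMIs against 13.1% in Adult. Angptl4, an inhibitor of lipoprotein lipase, was the member called lower, with 20.5, 31.4, 216 and 45.9 CPM and a 4.703-fold (4.197 to 5.29) fall from P2. The fatty acid binding protein Fabp5, at 1806 to 996 CPM, was 1.81-fold lower (1.77 to 1.86) and not called.

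Xdh, the enzyme that makes uric acid from xanthine, showed the highest ratio of the ranked genes outside antigen presentation. It had 0, 0.667, 1.19 and 150.0 CPM at E12, E15, P2 and Adult, and the P2 value rested on 26 UMIs, so the interval of the ratio, 126 (85.2 to 193), is wide. Its UMIs were found in 8.34% of Adult coronary cells at 500 UMIs, against 0.0236% at P2, and its endocardial level was 1.73 and 15.3 CPM at P2 and Adult. Art3, of the ADP-ribosyltransferase family, had 0, 10.01, 18.5 and 179 CPM and rose 9.67-fold (8.63 to 10.8), and the epoxide hydrolase Ephx1 had 0, 2.001, 9.05 and 94.1 CPM and rose 10.4-fold (8.85 to 12.2). The phosphatase Ptprr (12.5 to 131 CPM, 10.4-fold) and the scramblase Plscr2 (16.5 to 227 CPM, 13.8-fold) were also nearly absent before P2. Without artery cells the ratio of Ptprr was 17.7.

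Among carriers of the capillary wall, Abcb1a, the drug efflux pump P-glycoprotein, rose from 17.2 to 91.9 CPM (5.33-fold). The prostaglandin transporter Slco2a1 fell from 35.3 to 13.4 CPM. Of 16 members of this list, 8 were tested, 2 were called higher and 1 lower, and the median log2 ratio was -0.01. The efflux pump Abcg2 (176 to 222 CPM) and the nucleoside carrier Slc29a1 (255 to 137 CPM) stayed within 2-fold.

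Over all coronary cells, some receptors for vascular endothelial growth factor (VEGF) were higher in Adult. Of 13 VEGF and angiopoietin receptors and ligands, 10 were tested, 5 were called higher and 0 lower, with a median log2 ratio of 0.79. Flt1, the decoy receptor VEGFR1, had 156, 179, 230.4 and 678 CPM at E12, E15, P2 and Adult and rose 2.94-fold (2.83 to 3.06). The phosphatase Ptprb, which holds VEGF and Tie2 signals in check, had 82.1, 54.04, 136 and 468 CPM and rose 3.45-fold (3.28 to 3.63). Kdr, the main signalling receptor VEGFR2, had 213, 292, 382 and 787 CPM, and the co-receptor Nrp1 177, 319.6, 519 and 1051 CPM. Their ratios of 2.06 (1.99 to 2.13) and 2.03 (1.97 to 2.09) lay at the limit and fell under 2-fold with P2 thinned to the Adult depth, at 1.89 and 1.998. Among cells of 1500 to 3000 UMIs, Flt1 and Ptprb were at 1.95 and 1.90 and were no longer called. Kdr and Nrp1 lost their calls there too. Only 1 member of the list was still called higher among these cells, with a median log2 ratio of 0.38. Over all alternatives the ratio of Kdr went down to 1.40. Tie1 (259 to 384 CPM) did not pass 2-fold.

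Of 24 tip cell and sprouting genes, 19 were tested, 6 were called lower and 2 higher, with a median log2 ratio of -0.51. Among cells of 1500 to 3000 UMIs 9 were called lower and 0 higher, with a median of -0.80. Marcksl1, an actin-binding protein of growing vessels, had 1264, 729.9, 686 and 97.4 CPM at E12, E15, P2 and Adult and fell 7.05-fold (6.52 to 7.62) from P2. The basement membrane protein nidogen-2, Nid2, had 28.7, 80.1, 153 and 51.7 CPM and fell 2.96-fold (2.65 to 3.31). The actin bundler Fscn1 fell 2.08-fold (1.99 to 2.17) from 729 CPM, a call that ended in 4 alternatives. Plvap, the diaphragm protein of caveolae and fenestrae, fell 2.82-fold (2.48 to 3.21) from 109 CPM, but was at 0.816 times its P2 level without artery cells. The surface protein Cd34 (1059 to 746 CPM) and the factor Tcf4 (665 to 766 CPM) stayed within 2-fold.

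Notch genes moved in both directions. Of 17 members 11 were tested, 2 were called higher and 2 lower, with a median log2 ratio of 0.44. The ligand Dll4 had 16.4, 52.04, 46.7 and 101 CPM at E12, E15, P2 and Adult, a ratio of 2.16 (1.96 to 2.38) that dropped just below 2-fold in 3 alternatives. The target Hes1 had 111, 135, 933 and 291 CPM and fell 3.21-fold (3.07 to 3.36), and the feedback inhibitor Nrarp 49.3, 107, 150.5 and 53.8 CPM and fell 2.796-fold (2.51 to 3.12). The arterial target Hey1 had 68.2 to 133 CPM and a ratio of 1.95 (1.796 to 2.12), which turned to 0.801 without artery cells. Of the 4 stages Hes1 stood highest at P2.

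Some artery genes were higher in Adult, and a larger share of Adult coronary cells carried artery markers, a set that includes Cxcl12 itself. Of 20 artery genes, 17 were tested, 8 were called higher and 0 lower, with a median log2 ratio of 0.96. In 1 of the 8 the P2 level was under 13.3 CPM, so it had passed the filter through Adult. Cxcl12, the chemokine that binds Cxcr4, had 12.3, 75.4, 294 and 1678 CPM at E12, E15, P2 and Adult and rose 5.7002-fold (5.53 to 5.88), and was found in 8.57% of P2 and 45.5% of Adult cells at 500 UMIs, against 0.579% and 0.763% of endocardial cells. Alkaline phosphatase, Alpl, had 0, 0, 7.54 and 182 CPM and rose 24.1-fold (20.4 to 28.5). The guidance molecule Sema3g had 12.3, 16.01, 15.2 and 76.2 CPM and rose 5.01-fold (4.36 to 5.76). Its ratio was 2.29 among cells of 1500 to 3000 UMIs and 4.003 without artery cells, where the call ended as the mean level fell under 20 CPM. Within cells that carried artery markers the ratio was 1.17, with an interval of 0.880 to 1.57. Tm4sf1, a membrane protein of endothelial protrusions, had 246, 476, 865 and 2301 CPM and rose 2.66-fold (2.61 to 2.72). The taurine transporter Slc6a6 (290.2 to 473 CPM) did not pass 2-fold.

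Artery-marked cells held at least 2 UMIs of Gja4, Gja5, Cxcl12, Glul, Stmn2 and Fbln5 together, counted after thinning to 1000 UMIs. They made up 638 of 4237 P2 cells (15.1%, 14.0% to 16.2%) and 1630 of 3022 Adult cells (53.9%, 52.1% to 55.7%), with 925 shallower Adult cells left out. The ratios given without artery cells used the same genes without thinning, which left 2730 of 4237 P2 and 1456 of 3947 Adult cells. Cxcl12 was among the markers used, so the share of artery-marked cells depends on its level, and its values within the split are a description. At P2 the artery-marked cells held more Sema3g than the others (103 and 4.72 CPM), but also more of the lymphatic gene Ccl21a (1895 and 694 CPM). They held less of the capillary genes Rgcc (323 and 657 CPM) and Timp4 (40.8 and 134 CPM) at P2. In Adult these were closer, at 1852 and 1903 CPM and at 342 and 500 CPM, though Aqp1 stayed lower in marked cells (1040 and 2720 CPM). The marked cells may thus differ in make-up between the stages, and ratios within or without them may compare unlike cells. Within these artery-marked cells Cxcl12 had 2143 CPM at P2 and 3031 CPM in Adult. In the other coronary cells it had 17.8 and 321 CPM. Class I genes differed within both groups: B2m was 4.13-fold higher in artery-marked and 4.25-fold higher in other cells, and H2-K1 11.5-fold and 14.01-fold. H19 was 305-fold and 75.5-fold lower, at low Adult levels of 5.52 and 22.3 CPM. The H19 ratios of Adult to P2 were 0.00328 (0.00150 to 0.00626) and 0.0133 (0.00900 to 0.0188). Ly6a was 3.57-fold and 6.58-fold higher. Aqp7 was 2.895-fold higher in artery-marked and 2.71-fold higher in other cells, and Rgcc 5.73-fold and 2.897-fold. The differences of these genes were therefore seen on both sides of the split. Some other rises were smaller within artery-marked cells. Pi16 was at 1.23 (0.972 to 1.58), Dll4 at 1.30 (0.967 to 1.78) and Lamb2 at 1.22 (0.929 to 1.62) there, with intervals that include 1. In the other cells they were at 2.15, 1.88 and 1.82. Ltbp4 and Tm4sf1 were at 1.29 and 1.44 within artery-marked cells and at 2.83 and 2.37 in the others.

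Vein genes went both ways. Of 16 members 11 were tested, 3 were called higher and 3 lower, with a median log2 ratio of 0.28. In 1 of the 3 lower the Adult level was under 13.3 CPM, so it had passed the filter through P2. Nr2f2, the factor that specifies veins, had 181, 83.4, 71.8 and 28.6 CPM at E12, E15, P2 and Adult and fell 2.51-fold (2.17 to 2.93) from P2, or was at 0.599 times its P2 level without artery cells. The growth factor pleiotrophin, Ptn, had 103, 133, 75.6 and 8.22 CPM and fell 9.19-fold (7.06 to 12.2). The protease Prss23 had 49.3, 21.3, 94.9 and 38.1 CPM and was called lower, but its ratio turned to 1.12 without cells carrying markers of other types, 2.50 without artery cells and 1.49 among cells of 1500 to 3000 UMIs. The receptors Ephb4 (138 to 136 CPM) and Nrp2 (151 to 184 CPM) stayed within 2-fold.

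Genes of the elastic and interstitial matrix were lower in Adult in part. Of 21 elastic and interstitial matrix genes, 12 were tested, 5 were called lower and 1 higher, with a median log2 ratio of -0.58. Elastin, Eln, had 406, 438, 519 and 77.6 CPM at E12, E15, P2 and Adult and fell 6.69-fold (6.13 to 7.31), and the microfibril protein Mfap2 had 144, 141, 169.6 and 15.005 CPM and fell 11.3-fold (9.298 to 13.9). Without artery cells their Adult levels were 0.416 and 0.246 times those of P2. The collagen Col5a2 fell 5.02-fold (4.202 to 6.05) from 93.5 CPM. Ltbp4, which holds latent TGF-beta in the matrix, rose 3.02-fold (2.8997 to 3.14) from 235 CPM. Among cells of 1500 to 3000 UMIs its ratio was 1.78 and it was not called. Fbln2 (266 to 225 CPM) and Mgp (284 to 394 CPM) stayed within 2-fold over all coronary cells. In the artery split, Fbln2 was lower on both sides, at 0.444 (0.392 to 0.503) in artery-marked and 0.521 (0.431 to 0.625) in other cells. Mgp was at 0.402 (0.359 to 0.451) in artery-marked and 1.63 (1.42 to 1.86) in other cells.

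Of 23 basement membrane genes, 18 were tested, 2 were called lower and 1 higher, with a median log2 ratio of -0.19. Col18a1, the source of endostatin, had 349, 408, 340.2 and 66.1 CPM at E12, E15, P2 and Adult and fell 5.15-fold (4.68 to 5.67) from P2. Without artery cells its Adult level was 0.119 times that of P2. The laminin chain Lamb2 had 53.7 to 111 CPM and a ratio of 2.07 (1.89 to 2.27) that fell under 2-fold in 6 alternatives. The matrix protein genes Sparc (4325 to 3278 CPM), Col4a1 (808 to 685 CPM), Sparcl1 (917 to 1331 CPM) and the collagen chaperone Serpinh1 (1280.2 to 822 CPM) stayed within 2-fold.

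Junction, caveolar and glycocalyx genes mostly stayed within 2-fold. Of 18 junction genes, 15 were tested, 4 were called higher and 0 lower, with a median log2 ratio of 0.31. The junctional adhesion molecules Jam2 (156 to 444 CPM) and Jam3 (33.2 to 129 CPM) rose 2.84-fold (2.704 to 2.98) and 3.88-fold (3.52 to 4.29), and the adherens junction protein Mllt4 2.42-fold (2.26 to 2.59). Esam (822 to 1205 CPM), Ctnnb1 (390.4 to 459 CPM) and F11r (349 to 413 CPM) stayed within 2-fold. Of 17 genes of caveolae, fenestrae and glycocalyx, 14 were tested, 2 were called higher and 1 lower. The sialomucin Podxl rose 3.17-fold (3.005 to 3.34) from 129 CPM and Sdc3 2.52-fold (2.23 to 2.83) from 29.1 CPM, while the caveolar genes Cav1 (2239 to 1861 CPM), Cav2 (874 to 1095 CPM) and Sdpr (1439.9 to 1733 CPM) did not pass 2-fold. Among cells of 1500 to 3000 UMIs the ratios of Podxl, Sdc3 and Mllt4 were 1.68, 1.27 and 1.48, and none of the 3 was called.

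Most tested genes known to respond to flow, and most of those that keep blood fluid, were not called. Klf2, a factor induced by laminar shear stress, had 131, 224, 1415 and 569 CPM at E12, E15, P2 and Adult and fell 2.49-fold (2.41 to 2.57) from P2, while Klf4 was at 309.9 and 312 CPM. Thrombomodulin, Thbd, had 16.4, 26.7, 116 and 300.0 CPM and rose 2.59-fold (2.44 to 2.75). Its ratio was 1.99 among cells of 1500 to 3000 UMIs, just short of a call. The angiotensin-converting enzyme Ace (17.5 to 52.1 CPM) and Pi16 (55.02 to 143 CPM) also rose, and the endothelin-converting enzyme Ece1 (142 to 227 CPM) did not pass 2-fold. The call of Ace ended in 3 alternatives, with a ratio of 1.63 among cells of 1500 to 3000 UMIs, and of 3.49 without artery cells, where the mean level was under 20 CPM. Within cells that carried artery markers its ratio was 0.739, with an interval of 0.524 to 1.05. Of 17 flow and vasomotor genes, 14 were tested, with 3 called higher, 1 lower and a median log2 ratio of 0.06. Of 17 anticoagulant and fibrinolytic genes, 11 were tested, with 2 called higher, 3 lower and a median of -0.51. In 1 of the 3 lower the Adult level was under 13.3 CPM, so it had passed the filter through P2. The tissue factor pathway inhibitor Tfpi had 82.1, 119, 161 and 49.2 CPM and fell 3.26-fold (2.92 to 3.66), and the protease inhibitor Serpine2 (52.3 to 11.3 CPM) fell 4.65-fold (3.69 to 5.92). The call of Serpine2 ended in 4 alternatives, and its Adult level was 0.6096 times that of P2 without artery cells, 0.413 among cells of 1500 to 3000 UMIs and 0.0965 without cells carrying markers of other types. Annexin A2, Anxa2, lay at the limit at 2.03-fold lower (1.96 to 2.104) and lost its call in 9 alternatives. Its partner S100a10 (1022 to 637 CPM) was not called.

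Most transcription factors of the endothelium stayed within 2-fold. Of 41 factors, 30 were tested, 4 were called higher and 4 lower, with a median log2 ratio of 0.04. In 1 of the higher the P2 level, and in 2 of the lower the Adult level, was under 13.3 CPM. The SoxC factors Sox4 and Sox11, known from embryonic tissues, had 275, 159, 222 and 44.6 and 135, 77.4, 57.8 and 1.59 CPM at E12, E15, P2 and Adult. They fell 4.98-fold (4.43 to 5.601) and 36.4-fold (20.3 to 73.2) from P2. Without artery cells the Sox4 ratio of Adult to P2 was 0.353. Epas1, which encodes the hypoxia-inducible factor HIF-2 alpha, had 61.6, 102, 170.1 and 574 CPM and rose 3.37-fold (3.22 to 3.53), and Tsc22d1 had 222, 236, 408 and 1132 CPM and rose 2.77-fold (2.69 to 2.86). Ets1 (312 to 421 CPM) and the capillary factor Tcf15 (355 to 421 CPM) stayed within 2-fold. In the BMP and TGF-beta list, 16 of 23 members were tested, 1 was called higher and 1 lower. The BMP9 receptor Acvrl1 had 16.4, 32.7, 60.3 and 207 CPM and rose 3.43-fold (3.18 to 3.703), and the ligand Tgfb1 had 259, 195, 214 and 69.7 CPM and fell 3.07-fold (2.796 to 3.38). The targets Id1 (743 to 1214 CPM), Id2 (179 to 127 CPM) and Id3 (1533 to 2044 CPM) and the co-receptor Eng (519 to 981 CPM) stayed within 2-fold.

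Clock and glucocorticoid genes were higher in part. Of 20 members 8 were tested, 3 were called higher and 0 lower, with a median log2 ratio of 0.85. In 1 of the 3 the P2 level was under 13.3 CPM, so it had passed the filter through Adult. Cdkn1a, the cell cycle inhibitor p21, had 16.4, 33.4, 152 and 747 CPM at E12, E15, P2 and Adult and rose 4.899-fold (4.69 to 5.12), with UMIs in 6.92% of P2 and 26.2% of Adult cells at 500 UMIs. Txnip, an inhibitor of glucose uptake, had 32.8, 58.7, 216 and 560.1 CPM and rose 2.597-fold (2.49 to 2.71), and the clock gene Per1 (9.19 to 42.1 CPM) rose 4.58-fold (3.82 to 5.51). Among cells of 1500 to 3000 UMIs Txnip was at 1.66, no longer called, and Per1 at 2.57. Tsc22d3 (273 to 545 CPM) and Sgk1 (551 to 899 CPM), both induced by glucocorticoids, were not called. The time of day at which the hearts were taken is not given in the sources used here.

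Ribosomal protein genes shared a small shift, and energy genes mostly stayed within 2-fold. Of 77 ribosomal protein genes, all tested, 75 had a ratio below 1, 2 were called lower (Rpl39 and Rplp0) and the median log2 ratio was -0.47. They summed to 310338, 290495, 156682 and 114140.0 CPM at E12, E15, P2 and Adult. In endocardial cells the sum was 155977 CPM at P2 and 144669 CPM in Adult. Rplp0 had 3098 to 1532 CPM and Rpl39 2038 to 987 CPM from P2 to Adult, and both calls ended with P2 thinned to the Adult depth. Rpl41 (5981 to 4444 CPM) and Rps29 (3672 to 3818 CPM) stayed within 2-fold. Of 83 nuclear genes for oxidative phosphorylation subunits, 77 were tested, 1 was called higher and 0 lower, with a median log2 ratio of -0.21. The one called, the hypoxia-linked subunit isoform Cox4i2, had 10.8 to 60.9 CPM and rose 5.66-fold (4.81 to 6.67), a call that ended without artery cells. Its P2 level was under 13.3 CPM, so it had passed the filter through Adult. Of 20 glycolysis genes 13 were tested, only Tpi1 was called lower, with 166 to 79.9 CPM, a call that ended in 6 alternatives, and Gapdh had 714 to 396 CPM. Of the mitochondrially encoded genes, 3 of 12 tested were called higher, all within 2.17-fold, and those 3 lost their calls once depth was matched.

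Chaperones of the heat shock response were higher in Adult in part, with 6 of 16 called higher and 0 lower and a median log2 ratio of 0.37. Hspa1a, the inducible HSP70, had 53.4, 150.1, 285 and 2412 CPM at E12, E15, P2 and Adult and rose 8.45-fold (8.21 to 8.704), and the small chaperone Hspb1 had 57.5, 80.7, 155 and 1571 CPM and rose 10.1-fold (9.75 to 10.5). Hspa1b is a near-identical copy of Hspa1a, so its ratio of 8.69 is uncertain. The constitutive Hspa8 (2013 to 2016 CPM) and Hsp90ab1 (1477 to 1539 CPM) did not differ by 2-fold. In endocardial cells Hspa1a had 173 and 283 CPM and Hspb1 96.7 and 263 CPM at P2 and Adult. Differences in handling between the 2 preparations cannot be told apart from age. Of 23 immediate-early genes, 19 were tested, 3 were called higher and 1 lower. Fos (1635 to 1932 CPM) and Junb (1207 to 1466 CPM) did not differ by 2-fold, Jun rose 2.35-fold (2.29 to 2.41) and Klf6 2.798-fold (2.67 to 2.93), and Jund fell 4.24-fold (3.99 to 4.51). Without cells high in such genes Jun was at 1.36 times its P2 level and lost its call. Metallothionein Mt1 was called higher at 9.997-fold (8.39 to 11.96), but was at 0.903 when dividing cells, cells with markers of other types and artery cells were left out together.

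**Figure D4:**
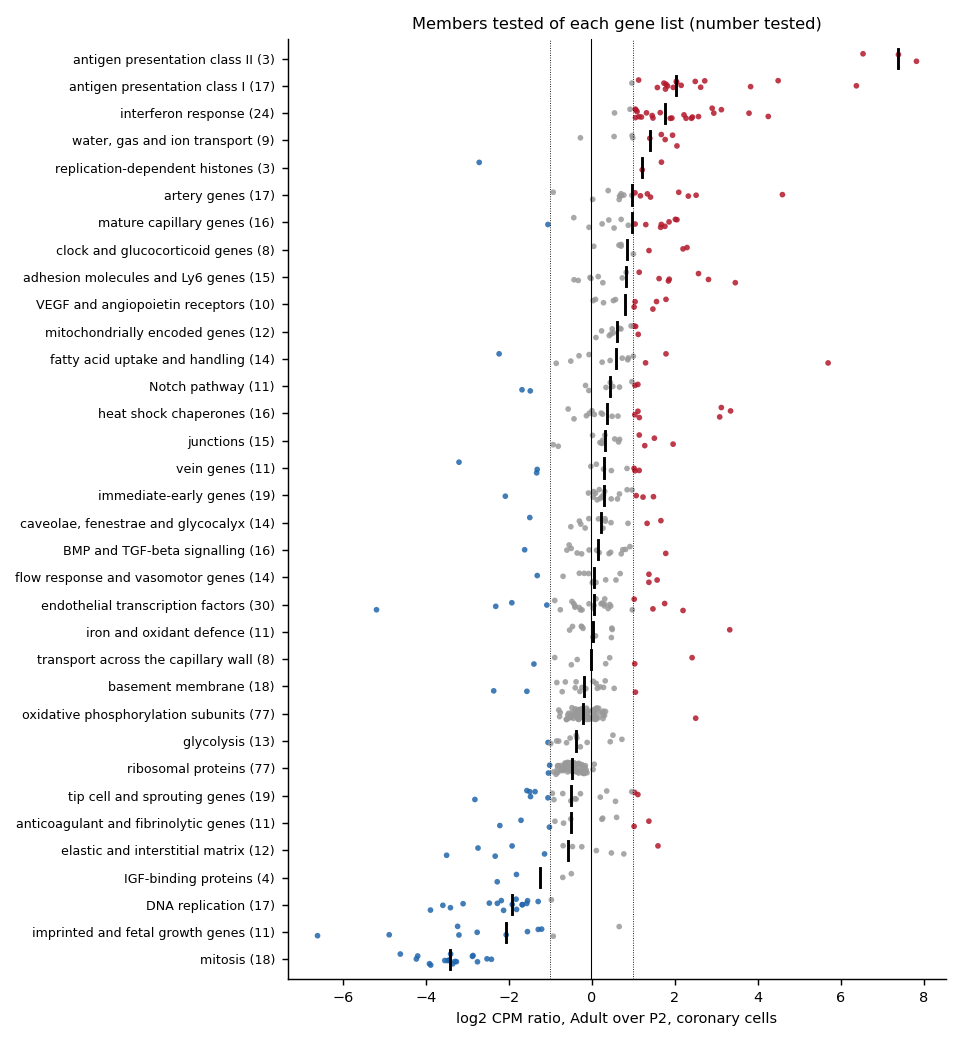
Log2 ratio of Adult over P2 for each tested member of the gene lists, 1 point per gene and 1 row per list, with called members in colour and a black bar at the list's median. The class I and interferon rows lie to the right of 0 and the mitosis and replication rows to the left. All but 1 member of the imprinted row also lie to the left, while most other lists straddle the median of all genes at -0.02.

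Endocardial cells of the same libraries give the same 2 stages in a second group of cells, with 1555 cells at P2 and 131 in Adult and a median of 4550 and 2707 UMIs. This group also held markers of other kinds. Its fibroblast markers summed to 2152 CPM at P2 and 12014.5 CPM in Adult, and its vein genes to 4380 and 13620 CPM. Endocardial markers outside the rule had 3908 and 4214 CPM. Its make-up may thus differ between the stages, and its ratios were not recomputed without such cells. Over the 5864 genes tested in coronary cells, 355 (6.05%) were higher and 446 (7.61%) lower in Adult endocardial cells by the same limits. Both comparisons share their libraries, so their values are set side by side and no overlap is read as support. H19 fell 97.5-fold (81.6 to 118) in coronary and 12.5-fold (10.97 to 14.2) in endocardial cells, with intervals that do not overlap, and endocardial cells still had 597 CPM in Adult. Mest fell 29.5-fold (26.9 to 32.3) and 22.04-fold (13.6 to 38.6). Genes of the coronary side reached lower Adult levels in endocardial cells: Ly6c1 reached 3805 CPM in Adult coronary and 123 CPM in Adult endocardial cells, Rgcc 1754 and 43.4 CPM, and Thrsp 273 and 12.8 CPM. Hspa1a rose 8.45-fold (8.21 to 8.704) in coronary cells and was at 1.64 (1.34 to 1.99) times its P2 level in endocardial cells. The summed water, gas and ion transport genes were 2.38-fold higher in coronary cells (2.34 to 2.41) and 1.601-fold higher in endocardial cells (1.47 to 1.74). The adhesion and Ly6 genes were 2.49-fold (2.47 to 2.51) and 1.76-fold (1.70 to 1.83) higher.

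**Figure D5:**
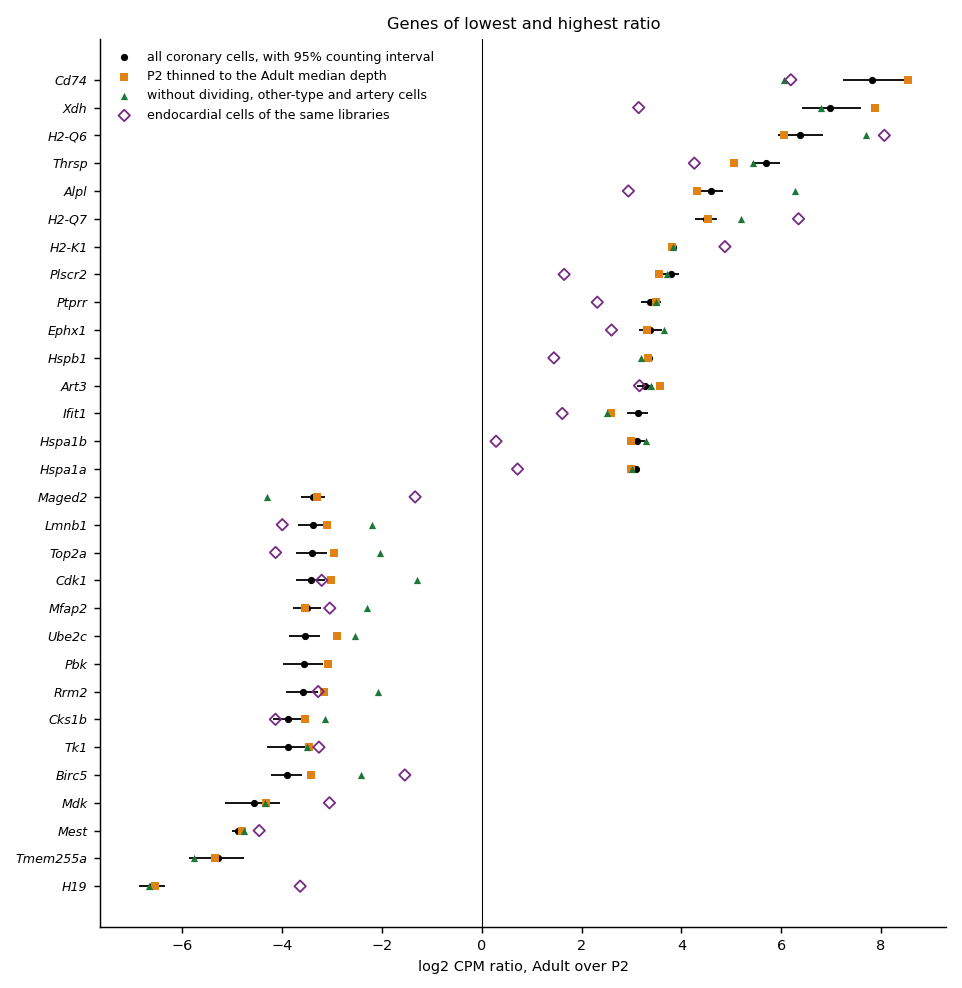
Adult to P2 ratio, on a log axis, of the 15 highest and 15 lowest called genes of mean level of at least 50 CPM, for all coronary cells with their 95% intervals (black), with P2 thinned to the Adult depth (orange), without dividing, other-type and artery cells (green) and in endocardial cells (open diamonds), with values of 0 left out. Black, orange and green points keep to the same side of 1 for the genes drawn, and H19 and Maged2 lie nearer to 1 in endocardial than in coronary cells.

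Some of the genes described are neighbours in the genome. The class I genes H2-K1, H2-D1, H2-Q6 and H2-Q7 lie between 33996017 (H2-K1) and 35443773 (H2-Q7) on chromosome 17 of GRCm38.p6, whereas B2m lies on chromosome 2 at 122147686 to 122153083. The Ly6 genes Ly6a, Ly6c1, Ly6c2 and Ly6e lie together on chromosome 15, with Ly6c1 at 75044018 to 75048830 and Ly6a at 74994877 to 74998031. Ifit1 and Ifit3 lie on chromosome 19. Cxcl12 lies on chromosome 6 at 117168535 to 117181367 and Aqp7 on chromosome 4 at 41033074 to 41048139.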

How the data were processed

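RNA was measured in endothelial cells of 4 stages with 10x Genomics 3′ libraries, 1 library per stage. Per the labels, the authors mapped reads with Cell Ranger 2.2 to mm10. The authors deposited raw UMI counts for 27998 genes in each barcode. The P2, Adult and E15 files hold called cells. E12 barcodes were called at 452 UMIs by the order-of-magnitude rule (3000 expected cells, quantile 0.99, share 0.1).

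UMIs of the cells taken were summed per stage and divided by the total to give CPM, here computed from the deposited counts. Ratios have exact conditional binomial, levels exact Poisson and shares exact binomial 95% intervals, for counting error only. No stage has a replicate, so stages were not tested against each other. Genes of mean level of at least 20 CPM were tested against 2-fold. Shares were taken at 500 UMIs per cell. Doublets were scored with the Scrublet method and kept. At P2 198 barcodes (3.37%, 4.71% expected) and in Adult 72 (1.70%, 3.39% expected) scored over 0.15. Calculations used Python 3.11.15, numpy 2.4.6, scipy 1.17.1, pandas 2.3.3 and scikit-learn 1.9.0, and ratios were tested on simulated data.

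The members and the gene lists were chosen with earlier results of these data known. Genes with values are the 15 highest and 15 lowest ratios among called genes of mean level of at least 50 CPM (without rule genes, markers of other types, sex-linked genes and genes named by number), and of each list the 4 highest tested members and the 3 largest changes. Others named were chosen after their values were seen. Alternatives changed depth, limits on cells, make-up of the members, weighting, totals and the level filter. Gene positions are from GENCODE M21 on GRCm38.p6.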

Additional observations from a re-analysis of the deposited data

Results flagged for a closer look

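In 3 genes the coronary and the endocardial cells of the same libraries differed in opposite directions by at least 2-fold, each with an interval that excludes 1. These genes were found by that pattern, and the difference between the cell types was not tested. Their ratios were not recomputed under the alternatives. Anxa1, a phospholipid-binding protein of the resolution of inflammation, had 24.6, 44.03, 125 and 57.999 CPM at E12, E15, P2 and Adult in coronary cells, 2.16-fold lower (1.95 to 2.41) in Adult than at P2. In endocardial cells it had 83.5 and 232 CPM at P2 and Adult, a ratio of 2.78 (2.21 to 3.47). Fgl2, a membrane protein that can cleave prothrombin, had 0, 4.003, 107 and 18.2 CPM at the 4 stages in coronary cells and fell 5.91-fold (4.94 to 7.12). Its coronary UMIs sat in 297 of 4237 P2 cells and in 56 of 3947 Adult cells. The endocardial levels of Fgl2 were 63.5 and 153 CPM, a ratio of 2.41 (1.81 to 3.16). The alpha-tubulin gene Tuba1b had 998, 821, 990.1 and 485 CPM in coronary cells and fell 2.04-fold (1.97 to 2.12), while the endocardial levels were 340.0 and 682 CPM, a ratio of 2.005 (1.76 to 2.27). The Adult endocardial values rest on 131 cells with 391778 UMIs in all, and 1 UMI is worth 2.55 CPM there. Fibroblast and vein markers were higher in these cells than in those of P2, so the make-up of the endocardial group may differ between the stages. The coronary group held cells of other kinds too, and its markers of these moved both ways. Lymphatic markers there went from 1132 CPM at P2 to 118 CPM in Adult and mural cell markers from 62.05 to 305 CPM. Whether UMIs of the 3 genes sat in such cells was not tested. Tuba1b is one of several near-identical alpha-tubulin genes, so its counts may include reads of its copies. For Anxa1 and Tuba1b, the 10% of P2 coronary cells richest in each gene held 60.1% and 57.4% of its UMIs.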

How the results depend on the processing

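No paired analysis was possible because each stage has 1 library. Results were recomputed under 16 alternatives, of which leaving out dividing cells, cells with markers of other types and artery cells together was chosen after seeing the data. In 14 of them 374 to 529 genes were called higher and 324 to 548 lower, against 499 and 451. With a level filter of 5 CPM 894 were higher and 911 lower of 9653 tested, and with no filter 1711 and 1604 of 17402, since more genes entered. Among cells of 1500 to 3000 UMIs 61.7% of the higher and 54.8% of the lower calls were kept, and under the added alternative 70.7% and 55.9%. Of 143 named genes that were called, 75 kept the call in every alternative and 68 lost it in at least 1. Of those measured, 39 lost it among cells of 1500 to 3000 UMIs (28 with a ratio within 2-fold), 21 without artery cells (16), 28 without dividing cells (12) and 14 without cells with markers of other types (5). Ratios moved by over 1.5 times for 49, 33, 23 and 19 of them.

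Of the named genes that were called, 4 reversed their direction under some alternatives, and the cause was not tested. Ratios of some named genes that were not called crossed 1 as well. Hey1 moved from 1.95 to 0.801 without artery cells, and Car4 from 1.45 to 0.787 among cells of 1500 to 3000 UMIs. Among cells of 1500 to 3000 UMIs the Adult to P2 ratio was 1.10 for Hist1h2ap and 1.49 for Prss23. For Prss23 it was 1.12 without cells with markers of other types, 2.50 without artery cells and 3.10 under the added alternative. The ratio of Cenpa was 1.37 without dividing cells and 1.44 under the added alternative, and that of Mt1 0.903 under the latter. The ratio of Cxcl12 moved to 34.03 without artery cells and 3.66 without dividing cells. Artery cells were removed by Cxcl12 among other genes, without thinning and at unequal depth, so its 34.03 describes what the removal left. The ratio of Alpl moved to 61.9 without artery cells. With P2 thinned to the Adult depth, that of Thrsp moved to 33.4 and that of Xdh to 234. Adult cells were shallower, so genes seen in few P2 cells by 1 UMI each could not be called absent in Adult cells. With 1 library per stage, variation between animals is in none of the intervals.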
